A study of Mus musculus with 6 samples.

Results

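The proteasome subunit genes were examined in splenic CD8 T cells of mice, which had been isolated by flow sorting for CD45, CD3 and CD8a. The members are all genes of the deposited table whose symbol begins with Psma, Psmb, Psmc, Psmd or Psme. The symbol must then end in a number, with or without a final letter. This rule uses no expression value, but it was set with earlier results of these data known. There are 43 members among 17744 genes. Of these, 42 passed the filter on low values, an FPKM (read fragments scaled to transcript length and library size) of at least 1 in 3 libraries. The exception was Psma8, the germline alpha subunit, with 1 to 5 reads per library. The libraries were 3 labelled control, with the genotype given as wt, and 3 labelled fus irradiation, here called ultrasound 1, 2 and 3, whose genotype field repeats the treatment. Focused ultrasound concentrates sound waves on a tissue, and the series title names the spleen. The labels give no strain, age, dose, tumour status or interval after treatment, and they do not say whether the 3 libraries of a group came from separate animals, so p-values measure the spread between these samples, which may be technical.

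The proteasome degrades ubiquitin-tagged proteins inside a barrel called the 20S core. Its outer rings are made of alpha subunits, its inner rings of beta subunits, and 3 of the beta subunits cut the substrate. Interferon-gamma induces replacement catalytic subunits, which together form the immunoproteasome, and the PA28 (11S) cap made of the Psme1 and Psme2 products. The 19S cap, built from ATPase and non-ATPase subunits, binds, unfolds and feeds in substrates. In T cells, as in other lymphoid cells, immunoproteasome subunits are made constitutively, and the complex supplies peptides for class I antigen presentation.

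In the controls the most abundant subunit transcripts per length were Psme1 at a mean FPKM of 330.3 ± 19.95 (SD, n = 3) and Psmb8, an inducible catalytic subunit, at 247.9 ± 17.4 (SD, n = 3). The lowest tested member, named after its values were seen, was Psmd9, a chaperone of 19S assembly, at 7.54 ± 0.022 (SD, n = 3). The median member stood at 57.1, against 10.1 for all tested genes. Between neighbours in this order, Psmb1 (159.4 ± 1.8, SD, n = 3), likewise named, and Psme2 (148.0 ± 13.4, SD, n = 3) lay within the spread of Psme2, whereas Psme1 and Psmb8 did not overlap in any control library. All 5 interferon-inducible members lay among the 10 highest.

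**Figure D1:**
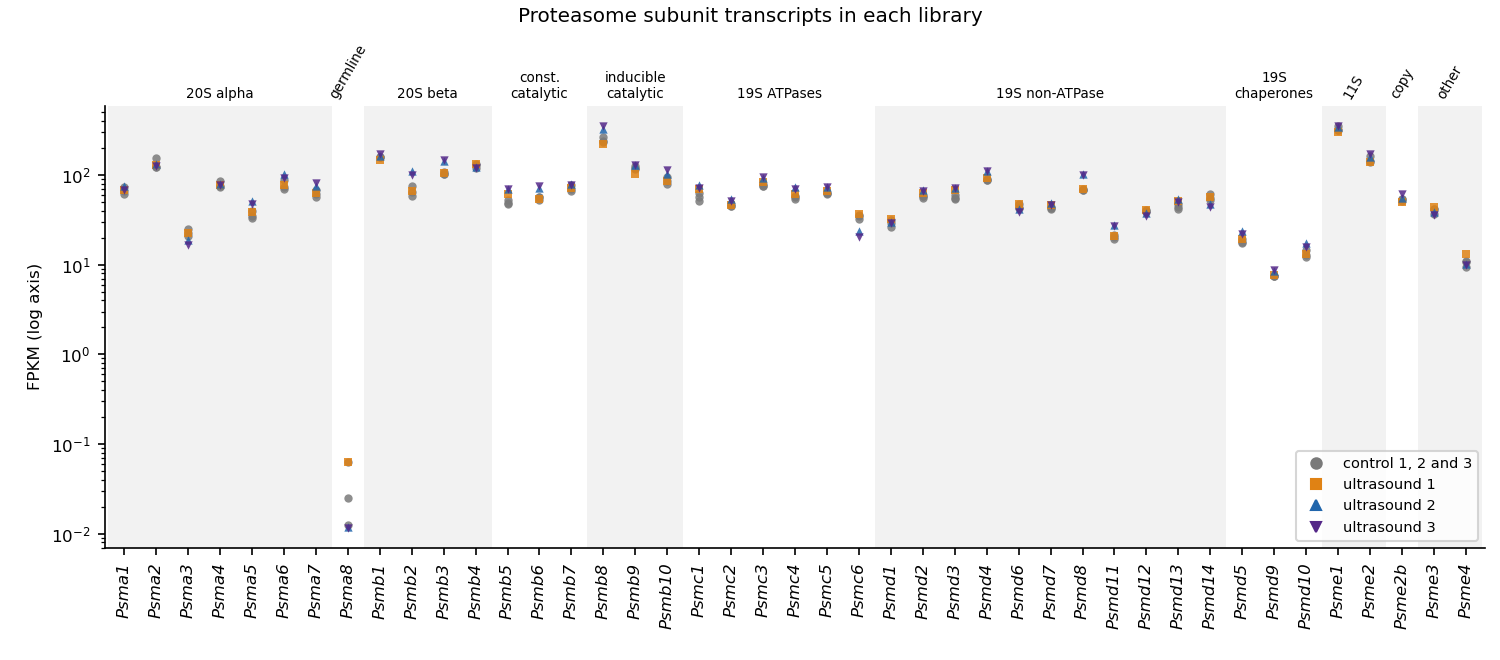
FPKM of each of the 43 subunits in each library on a log axis, arranged by role, with 3 control and 3 ultrasound points per gene. Psme1 and Psmb8 stand highest. Of the tested members Psmd9 stands lowest with a control mean of 7.54, and the untested Psma8 lies below it at 0.012 to 0.063.

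The libraries held 35024080 to 38113103 reads, and each tested member had between 625 and 16359 reads in a library. The gate genes were present throughout but not even, with Cd8a at 285.7 to 313.9 FPKM in the controls and 250.6 to 308.0 in the ultrasound libraries. Ptprc (CD45) spanned 417.5 to 484.5 among controls, against 431.3, 330.0 and 300.2 for ultrasound 1, 2 and 3. For Cd3d the control span was 204.4 to 223.2, against 157.5, 198.0 and 190.3. For Cd3e it was 190.6 to 209.4, against 164.7, 310.0 and 288.1. Cd3g spanned 415.4 to 415.8, against 366.7, 420.5 and 382.2. Limma called 0 of the 9 T cell and sort markers. Ultrasound 2 and 3 stood apart from ultrasound 1: mitochondrial genes took 0.954% and 0.937% of reads in them, against 2.19% in ultrasound 1 and 2.05% to 2.70% in the controls. Markers of other cells also differed. The summed FPKM of 13 monocyte and macrophage markers was 428.5 to 926.2 in the controls and 2117 to 3539 in the ultrasound libraries, and 6 of the 13 were called higher. That of 10 neutrophil markers was 184.0 to 566.1 in the controls, 2304 in ultrasound 1 and 611.8 and 637.6 in ultrasound 2 and 3, with 3 of the 10 called higher. That of 9 B cell markers was 216.0 to 335.2 in the controls, 162.3 in ultrasound 1 and 860.0 and 743.7 in ultrasound 2 and 3, with 0 called. No marker of these 3 lists was at 0 in any library. In such sorted bulk samples, fewer cells of a type and less RNA per cell cannot be told apart, and the part of these markers in the values below was not tested.

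As a whole, the subunit genes showed small differences between the groups. A single member, Psmb5, was called between ultrasound and control by limma at an adjusted p under 0.05, and it was higher. This is 2.38% of the 42 tested members, whereas 8.11% of all 10655 tested genes were called, 6.55% higher and 1.56% lower. At an unadjusted p under 0.05 there were 9 members (21.4%), against 31.2% of all genes. The log2 change, the difference between group means of log2(FPKM + 1), ranged from -0.38 to 0.45 over the members. Their median was 0.15, beside 0.09 for all tested genes. It was above 0 in 32 members (76.2%; 61.7% of all genes). With median-of-ratios scaling the median of all genes moved to -0.02, that of the members to 0.03, and 24 members (57.1%) lay above 0, beside 47.0% of all genes.

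**Figure D2:**
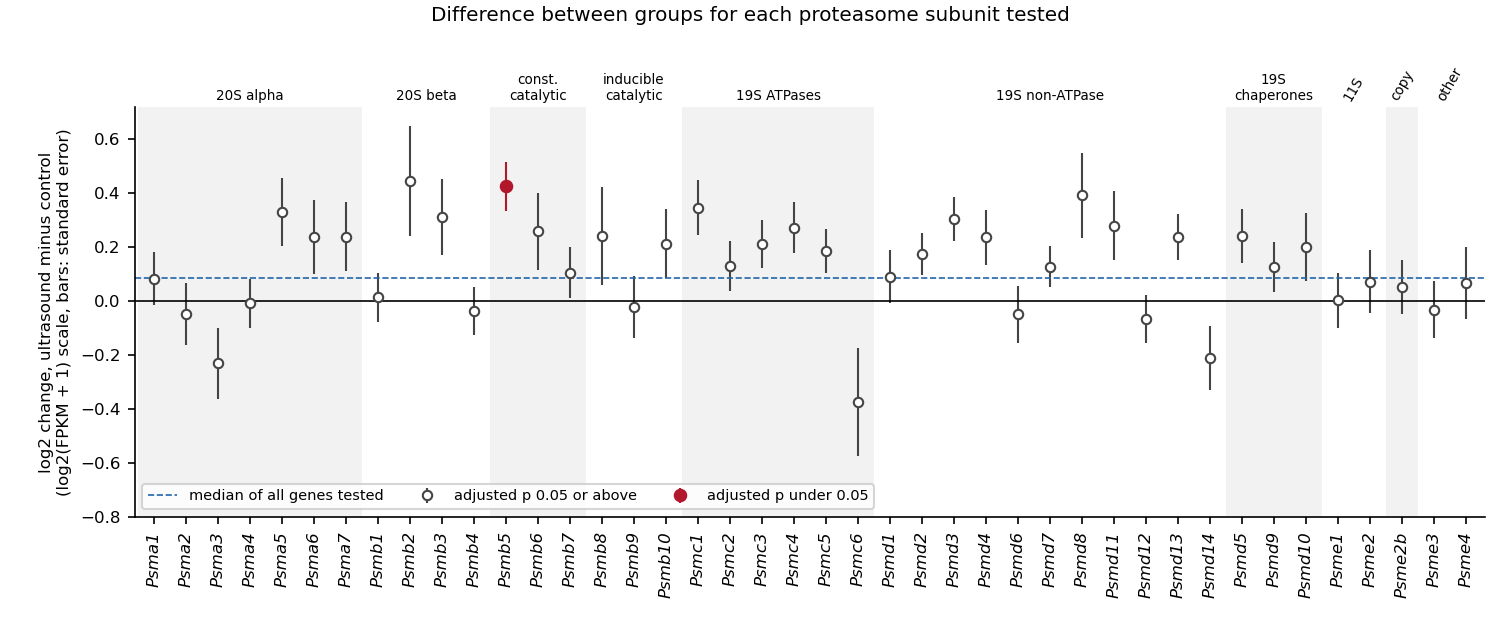
Log2 change of FPKM + 1, ultrasound minus control, for each tested subunit with its standard error, arranged by role. Most points lie between 0 and 0.45, and Psmb5 is the only one called at an adjusted p under 0.05.

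All 3 ultrasound libraries lay above all 3 controls in 12 members (28.6%), a share close to the 25.9% of all tested genes. In no member did all 3 lie below, which held for 8.96% of all genes. The 12 were Psmb5, the ATPases Psmc1, Psmc3, Psmc4 and Psmc5, the non-ATPase subunits Psmd2, Psmd3, Psmd4, Psmd7 and Psmd13, and the assembly chaperones Psmd5 and Psmd9. None of the 5 interferon-inducible members was among them.

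The ultrasound libraries did not move together. In ultrasound 2 and 3, 28 members (66.7%; 45.9% of all genes) lay above every control in both and 5 (11.9%; 27.4% of all genes) below. In ultrasound 1, 18 members (42.9%; 44.6% of all genes) lay above every control and 6 (14.3%; 23.1% of all genes) below. The median difference of the members from the control mean was 0.03 in ultrasound 1, 0.23 in ultrasound 2 and 0.20 in ultrasound 3 on the log2(FPKM + 1) scale. For all tested genes the same medians were 0.06, 0.13 and 0.09. Without ultrasound 1, limma called 25 members (59.5%), beside 53.7% of all genes. By direction, 22 members (52.4%) were higher and 3 (7.14%) lower, beside 34.1% and 19.7% of all genes.

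**Figure D3:**
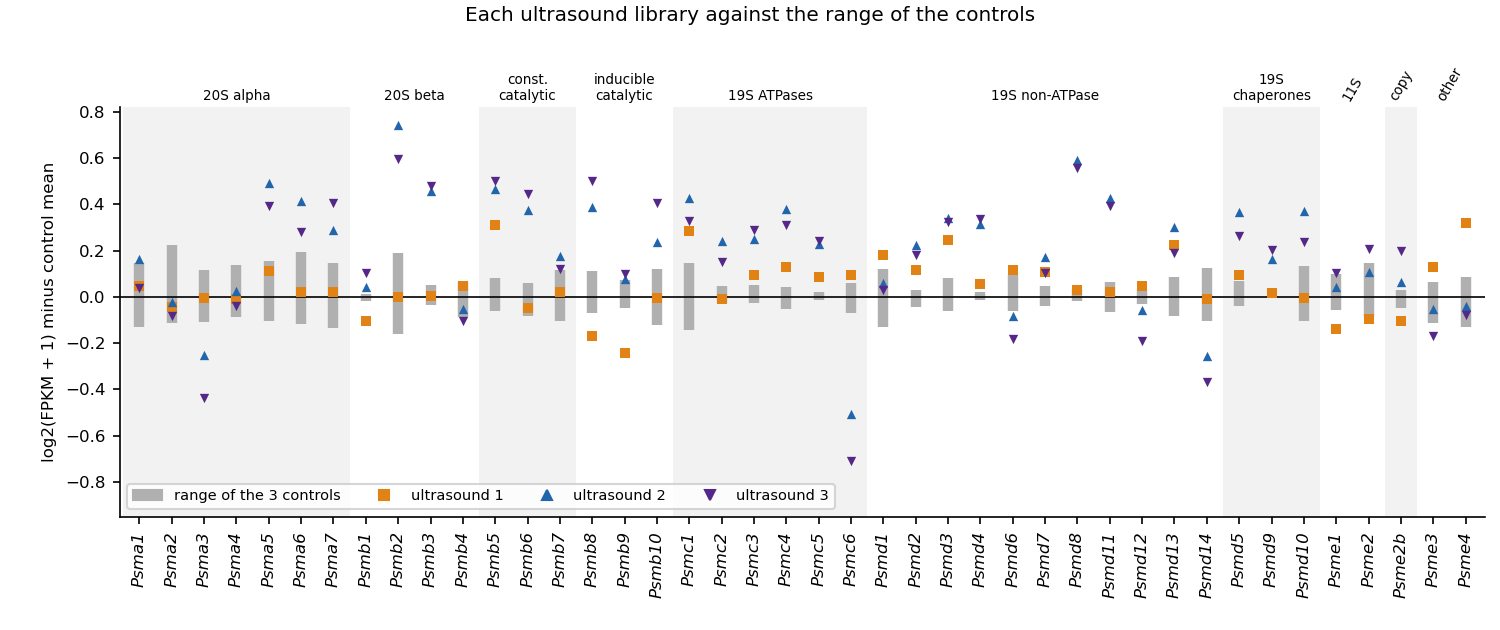
Difference of each ultrasound library from the control mean on the log2(FPKM + 1) scale for each tested subunit, with the range of the 3 controls as a grey bar. Ultrasound 2 and 3 lie together, with Psmb2 at 0.74 and 0.60 and Psmc6 at -0.51 and -0.71, while ultrasound 1 ranges from -0.24 to 0.32.

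The constitutive catalytic subunits were described first, since Psmb5 alone was called. Psmb5 encodes the beta5 subunit, which carries the chymotrypsin-like activity of the standard proteasome, and it lies at chr14:54614120-54617995 (GRCm38). Its FPKM was 52.5, 49.0 and 47.4 in controls 1, 2 and 3 and 61.8, 69.0 and 70.6 in ultrasound 1, 2 and 3. Every ultrasound library was above every control, with ultrasound 1 the lowest of the 3. The log2 change was 0.43 (SE 0.09), a 1.34-fold higher level, at an adjusted p of 0.0412 (limma, Benjamini-Hochberg over all tested genes, 3 libraries against 3). The call was lost with median-of-ratios scaling (adjusted p = 0.0882), with voom (0.0867) and without control 1, 2 or 3 or ultrasound 2 or 3 (0.0718 to 0.185). The authors' deposited table gives Psmb5 a log2 fold change of 0.31 and a q-value of 0.0515, and no member there has a q under 0.05, beside 12.3% of all listed genes.

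Psmb6 encodes beta1, the caspase-like subunit (chr11:70525324-70527858). Its FPKM was 57.5, 56.1 and 52.1 in the controls compared with 53.4, 71.96 and 75.6 in ultrasound 1, 2 and 3. Ultrasound 1 lay inside the control range and ultrasound 2 and 3 above it. On the log2 scale the change was 0.26 (SE 0.14), with an adjusted p of 0.246 by limma. Psmb7 encodes beta2, the trypsin-like subunit (chr2:38588046-38643952). Its FPKM was 76.5, 70.2 and 65.7 in the controls and 71.7, 80.0 and 76.8 in the ultrasound libraries, so the groups overlapped. The log2 change was 0.11 (SE 0.09), with an adjusted p of 0.451 by limma. RefSeq lists pseudogenes named after Psmb5, Psmb6, Psmb7 and Psma5, and how reads shared with such copies were counted is not given in the sources used here, so these values are uncertain to that extent.

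The promoters of Psmb5 and Psmb6 hold the antioxidant response element letters TGACNNNGC, through which the factor encoded by Nfe2l1 is known to raise subunit transcription. They are shown because Psmb5, Nfe2l1 and Nfe2l2 were called. Whether these letters or factors had a part in the Psmb5 level was not tested. Each line gives 30 bases, read 5′ to 3′ on the gene's strand from the RefSeq promoter table of GRCm38.p6, with the matched letters in capitals. The Psmb5 stretch is at chr14:54618023-54618052 on the minus strand, and the match begins at base -47, counted from the RefSeq start with -1 as the base before it. The Psmb6 stretch is at chr11:70525338-70525367 on the plus strand, and the match begins at base -9. By the gene coordinates given above, which start upstream of it, the Psmb6 stretch lies inside the gene, and an annotated Psmb6 exon overlaps it.
Psmb5: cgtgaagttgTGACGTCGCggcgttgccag
Psmb6: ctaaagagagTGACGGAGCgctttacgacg
Promoter windows of 250 bases before to 50 after the start were searched on both strands for 36 of the 43 members, 39 windows in all. The other 7, Psma8, Psmb1, Psmb2, Psmb7, Psmc3, Psmd3 and Psmd7, had no promoter sequence and were not searched. TGACNNNGC was found in 6 of the 39 (15.4%) and in 12.4% of all 32851 promoters of that length. The 6 genes were Psmb5, Psmb6, Psmc6, Psmd9, Psmd12 and Psme4, of which Psmc6 and Psmd12 lay below every control in ultrasound 2 and 3. CCAAT, the letters of a common promoter element, was found in 13 windows (33.3%) and in 37.4% of all promoters.

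The interferon-inducible subunits did not pass the test between the groups. None of the 5, the 3 catalytic and both PA28 subunits, was called by limma, 0 had an unadjusted p under 0.05, and voom (5.38% of all genes called) and the authors' deposited table also called 0. Their median log2 change was 0.07, beside 0.09 for all genes. Of the 5 values 4 were above 0, beside 61.7% of all genes (2 of 5 with median-of-ratios scaling, beside 47.0%). In ultrasound 1, 4 of the 5 lay below every control, Psme2 by a narrow margin (138.2 against 138.9 FPKM). So did 2 of the other 37 members, Psmb1 and Psme2b, and 23.1% of all genes. In ultrasound 2 and 3, 3 of the 5 lay above every control in both libraries. The same held for 25 of the other 37 members and 45.9% of all genes. Without ultrasound 1, 2 of the 5 were called by limma, Psmb8 at an adjusted p of 0.00422 and Psmb10 at 0.0234, in a comparison that called 53.7% of all genes.

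Psmb8 encodes beta5i (LMP7), which takes the place of beta5, and lies at chr17:34198195-34201454. Its FPKM was 267.8, 235.9 and 239.9 in the controls compared with 220.2, 324.3 and 350.9 in ultrasound 1, 2 and 3. Ultrasound 1 was the lowest and ultrasound 3 the highest of the 6 libraries. On the log2 scale the change was 0.24 (SE 0.18), with an adjusted p of 0.376 by limma.

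Psmb9 encodes beta1i (LMP2), the replacement for beta1, and lies near Psmb8 in the class II region at chr17:34182030-34187330. Its FPKM was 127.4, 117.3 and 119.1 in the controls and 102.4, 127.9 and 129.8 in the ultrasound libraries. Ultrasound 1 was again the lowest, and ultrasound 2 and 3 exceeded control 1 by a small margin. The log2 change was -0.02 (SE 0.12), with an adjusted p of 0.905 by limma.

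Psmb10 encodes beta2i (MECL-1), the replacement for beta2, at chr8:105935728-105938392. Its FPKM was 94.3, 86.6 and 79.5 in the controls and 86.3, 102.4 and 115.1 in the ultrasound libraries. Ultrasound 1 lay within the controls and the other 2 above them. On the log2 scale the change was 0.21 (SE 0.13), with an adjusted p of 0.285 by limma.

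Interferon-type letters were found in the promoter windows of 2 of the 5 interferon-inducible members, Psmb8 and Psme1, and are shown for that reason. Neither of these motifs was matched in the windows of Psmb9, Psmb10 or Psme2. The Psmb8 stretch, at chr17:34198088-34198117 on the plus strand of GRCm38.p6, holds the gamma-activated site letters TTCNNNGAA beginning at base -97, and an annotated Psmb8 exon overlaps it. The Psme1 stretch, at chr14:55578493-55578522 on the plus strand, holds the interferon-stimulated response element core, GAAA and GAAA parted by any 2 bases, on the opposite strand from base 10 to base 19 of the transcript. Capitals mark the matches.
Psmb8: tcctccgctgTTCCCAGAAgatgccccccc
Psme1: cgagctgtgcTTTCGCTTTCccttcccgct
TTCNNNGAA was found in 2 of the 39 windows (5.13%; Psmb8 and Psmd2) and in 8.30% of all promoters. The response element core was found in 4 (10.3%; Psmb3, Psmd4, Psmd9 and Psme1) and in 3.44% of all promoters. No match of one motif overlapped a match of another in these windows. A match describes the letters and not a bound site.

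The balance between inducible and constitutive transcripts was computed as ratios of FPKM within each library. The ratio of Psmb9 to Psmb6 was 2.21, 2.09 and 2.29 in the controls and 1.92, 1.78 and 1.72 in the ultrasound libraries, so all ultrasound values lay below all controls. The ratio of Psmb8 to Psmb5 was 5.11, 4.82 and 5.06 in the controls compared with 3.56, 4.70 and 4.97 in ultrasound 1, 2 and 3, with ultrasound 1 far below and ultrasound 3 inside the controls. The ratio of Psmb10 to Psmb7 was 1.23, 1.24 and 1.21 in the controls and 1.20, 1.28 and 1.499 in the ultrasound libraries, which surrounded the controls. The 3 pairs thus did not move in one way. The share of inducible transcripts in the summed FPKM of the 6 catalytic genes was 71.5% to 72.6% in the controls and 68.6%, 71.5% and 72.8% in the ultrasound libraries. With 3 libraries against 3, an exact two-sided permutation test cannot give a p below 0.1, so the ratios carry no call. Within a pair the coding sequences are 64.6% to 68.9% identical with no identical run over 18 bases.

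**Figure D4:**
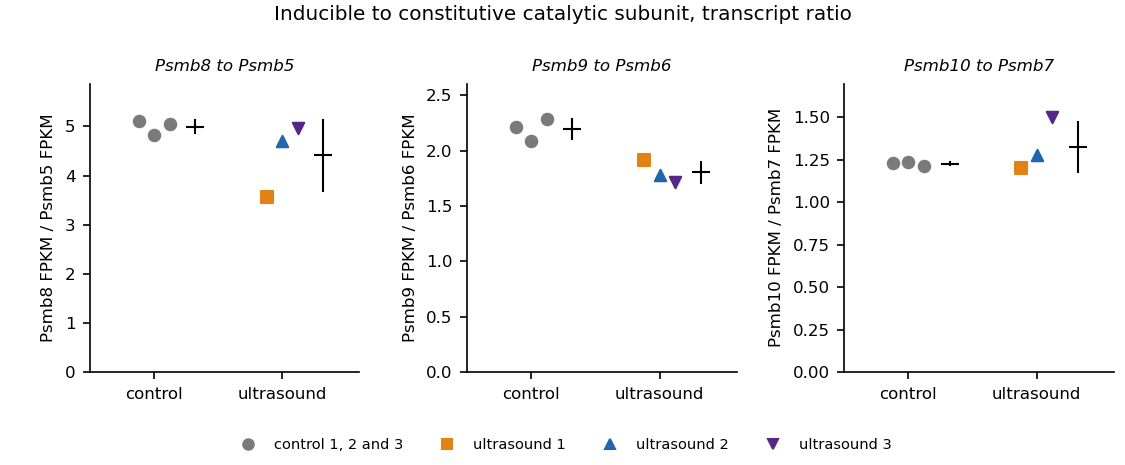
Ratio of inducible to constitutive catalytic subunit FPKM in each library for the pairs Psmb8 to Psmb5, Psmb9 to Psmb6 and Psmb10 to Psmb7, with the group mean and SD as a cross and bar on axes that start at 0. The groups are apart for Psmb9 to Psmb6, with controls at 2.09 or more and ultrasound at 1.92 or less, and overlap for the others.

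The alpha ring, which gates entry to the core, had 7 tested members and none was called. Their log2 changes ran from -0.23 to 0.33 with a median of 0.08. Psma5 had the smallest p of the ring. Its FPKM was 40.1, 34.7 and 33.4 in the controls and 38.9, 50.9 and 47.5 in the ultrasound libraries. Ultrasound 2 and 3 were above every control, and the log2 change was 0.33 (SE 0.13, adjusted p = 0.138 by limma). Psma3, chosen after its values were seen, stood on the other side, at 24.8, 21.1 and 22.7 in the controls and 22.7, 18.97 and 16.6 in the ultrasound libraries. The other 5 members had control means of 62.1 to 134.9 FPKM.

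The 4 structural beta subunits, Psmb1 to Psmb4, complete the inner rings without cutting, and 0 were called. Their median log2 change was 0.16. Psmb2, chosen after its values were seen, had the largest log2 change of all members. Its FPKM was 75.4, 64.6 and 58.9 in the controls compared with 66.0, 111.1 and 100.1 in ultrasound 1, 2 and 3. Ultrasound 1 was among the controls and the other 2 were well above them, and the log2 change of 0.45 (SE 0.20) had an adjusted p of 0.185 by limma. Psmb3, likewise chosen, had 107.9, 101.6 and 102.6 in the controls and 104.1, 143.0 and 145.3 in the ultrasound libraries, the same arrangement. The other 2 had log2 changes of -0.04 and 0.01.

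The 6 ATPases of the 19S base unfold substrates, and 0 were called. They held 4 of the 12 members with all ultrasound libraries above all controls, an arrangement found in 25.9% of all tested genes. Their median log2 change was 0.20, and 0.07 with median-of-ratios scaling. Psmc1 (Rpt2) had the largest positive log2 change among them, with FPKM of 63.4, 57.2 and 51.8 in the controls and 70.0, 77.4 and 72.1 in the ultrasound libraries. Its log2 change was 0.35 (SE 0.10) at an adjusted p of 0.0805 by limma. In ultrasound 1 too Psmc1 was above every control.

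Psmc4 (Rpt3) read 58.1, 54.3 and 56.9 in the controls and 61.8, 73.7 and 70.1 in the ultrasound libraries, with a log2 change of 0.27 (adjusted p = 0.113). Psmc3 (Rpt5) read 80.2, 76.0 and 75.9 against 82.7, 92.0 and 94.7, with a log2 change of 0.21 (adjusted p = 0.158). Psmc5 (Rpt6) read 63.6, 62.1 and 62.4 against 66.6, 73.7 and 74.3, with a log2 change of 0.19 (adjusted p = 0.175). In all of these ultrasound 1 was the lowest of its group. Psmc6 (Rpt4), chosen after its values were seen, went the other way in 2 libraries only: it read 35.8, 34.6 and 32.6 in the controls, 36.7 in ultrasound 1 and 23.8 and 20.6 in ultrasound 2 and 3. Its log2 change was -0.38 (SE 0.20, adjusted p = 0.236), and -0.61 (adjusted p = 0.0014) without ultrasound 1.

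The 11 non-ATPase subunits of the 19S cap listed here include some of the ubiquitin receptors and the deubiquitinase of the lid, and 0 were called. Their median log2 change was 0.17, and 0.05 with median-of-ratios scaling. In 5 of them all ultrasound libraries lay above all controls, beside 25.9% of all tested genes. Psmd3 (Rpn3), a lid subunit, had the second smallest p of all members. Its FPKM was 55.7, 59.97 and 54.2 in the controls and 67.3, 72.03 and 71.1 in the ultrasound libraries, a gap of several FPKM between the groups. Its log2 change was 0.30 (SE 0.08) at an adjusted p of 0.0672 by limma.

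Psmd8 (Rpn12), also of the lid, read 70.2, 67.7 and 67.8 in the controls, 70.0 in ultrasound 1 and 103.7 and 101.1 in ultrasound 2 and 3. Only the latter 2 were clear of the controls, and the log2 change was 0.39 (SE 0.16, adjusted p = 0.147). Psmd11 (Rpn6) showed the same arrangement, with 21.5, 20.5 and 19.5 in the controls and 20.8, 27.9 and 27.2 in the ultrasound libraries (log2 change 0.28, adjusted p = 0.182). Psmd13 (Rpn9) read 44.0, 46.9 and 41.5 in the controls and 51.6, 54.6 and 50.5 in the ultrasound libraries, all 3 being higher (log2 change 0.24, adjusted p = 0.118).

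Psmd4 (Rpn10), a ubiquitin receptor, read 89.6, 88.1 and 87.4 in the controls and 92.0, 110.1 and 112.0 in the ultrasound libraries (log2 change 0.24, adjusted p = 0.165). Psmd2 (Rpn1), the base scaffold that docks shuttle factors, read 58.5, 59.0 and 56.1 against 62.8, 67.6 and 65.7 (log2 change 0.17, adjusted p = 0.179). Psmd14 (Rpn11), the deubiquitinase of the lid, was chosen after its values were seen and read 61.8, 55.7 and 52.6 in the controls and 56.2, 47.2 and 43.6 in the ultrasound libraries. It was lower in ultrasound 2 and 3, with a log2 change of -0.21 (adjusted p = 0.258). The 3 assembly chaperones Psmd5, Psmd9 and Psmd10 had log2 changes of 0.13 to 0.24, and 0 were called. Psmd5, the largest of them, read 17.7, 19.1 and 17.7 in the controls and 19.5, 23.7 and 22.0 in the ultrasound libraries (adjusted p = 0.153).

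The PA28 cap opens the core without ubiquitin, and neither of its transcripts was called. Psme1, PA28 alpha (chr14:55578494-55581527), had FPKM of 353.2, 316.7 and 321.0 in the controls compared with 299.7, 340.2 and 354.5 in ultrasound 1, 2 and 3. Ultrasound 1 was below every control, ultrasound 2 was among them and ultrasound 3 was just above the highest. The log2 change was 0.00 (SE 0.10, adjusted p = 0.985 by limma), and it was -0.12 with median-of-ratios scaling.

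Psme2, PA28 beta (chr14:55587440-55591101), read 163.4, 138.9 and 141.7 in the controls and 138.2, 158.9 and 170.5 in the ultrasound libraries. On the log2 scale the change was 0.07 (SE 0.12, adjusted p = 0.68 by limma). The ratio of Psme1 to Psme2 was 2.16 to 2.28 in the controls and 2.08 to 2.17 in the ultrasound libraries. Psme3 and Psme4, which encode the nuclear activators PA28 gamma and PA200, had control means of 10.4 to 40.2 FPKM and log2 changes of -0.03 to 0.07. Both were above every control in ultrasound 1 and not in ultrasound 2 or 3.

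Psme2b, a copy of Psme2 at chr11:48945345-48946410, read 53.8, 54.4 and 51.4 in the controls and 49.4, 55.7 and 61.1 in the ultrasound libraries, and its log2 change was 0.05 (SE 0.10, adjusted p = 0.732 by limma). The coding sequences of Psme2 and Psme2b, both 717 bases, differ at 5 positions (99.3% identity) and share an identical run of 311 bases. Coding bases 484 to 543 from the GRCm38 annotation are shown because they hold 3 of the 5 differences, in capitals, and show how few bases can tell the copies apart.
Psme2: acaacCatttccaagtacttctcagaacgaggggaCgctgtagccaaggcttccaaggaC
Psme2b: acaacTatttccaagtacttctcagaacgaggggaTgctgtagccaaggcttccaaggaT
Reads of Psme2 and Psme2b could be split or exchanged by the counting, so the levels of both are uncertain.

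Across the 42 tested members, the mean difference of ultrasound 2 and 3 from the controls was higher in transcripts of higher GC content, with a Spearman rho of 0.53. The rho was 0.45 over the 10009 tested genes with a GC value. For ultrasound 1 the rho was -0.01 over the members and 0.00 over those genes. With transcript length the members' rho was -0.32 in ultrasound 2 and 3 and 0.37 in ultrasound 1, beside -0.22 and -0.01 over the genes. GC content and length are those of the longest annotated protein-coding transcript of each gene, which need not be the one expressed. The points share libraries and one control mean, and these are descriptions. The lowest GC among the members was 37.0%, in Psmc6, and the highest 58.3%, in Psmd3. GC content therefore moves with the split between ultrasound libraries, and its part in the member values was not tested.

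Genes that serve the proteasome were examined as a list of 45, of which 44 were tested. Limma called 2 higher and 1 lower, beside 6.55% and 1.56% of all genes. Their median log2 change was -0.04. Both higher genes encode CNC-type transcription factors. Nfe2l1, which drives the recovery of subunit transcription when proteasome activity is short, read 17.7, 17.2 and 17.1 FPKM in the controls and 21.8, 23.0 and 22.1 in the ultrasound libraries. The groups were apart, with a log2 change of 0.34 (SE 0.08, adjusted p = 0.0449 by limma).

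Nfe2l2 (Nrf2), the oxidative stress factor, read 24.7, 25.2 and 27.5 in the controls and 33.4, 37.6 and 42.2 in the ultrasound libraries. Its log2 change was 0.53 (SE 0.11, adjusted p = 0.0389 by limma). Both calls were lost with median-of-ratios scaling (adjusted p = 0.108 for Nfe2l1 and 0.0819 for Nfe2l2) and without any 1 library other than ultrasound 1 (0.101 to 0.197). In the authors' deposited comparison, where 12.3% of all listed genes had a q under 0.05, the q-values were 0.0273 for Nfe2l1 and 0.0316 for Nfe2l2. Myeloid markers moved in the same libraries, as given above.

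Irf1, the interferon-induced factor that activates Psmb8, Psmb9 and Psmb10 promoters, was lower. It read 191.7, 193.6 and 194.1 FPKM in the controls and 130.2, 107.3 and 125.5 in the ultrasound libraries. The controls were nearly equal and every ultrasound library was far below them. The log2 change was -0.67 (SE 0.10, adjusted p = 0.0304 by limma) and -0.80 (adjusted p = 0.0408) with median-of-ratios scaling. Leaving out single libraries gave adjusted p-values of 0.000714 (without ultrasound 1) to 0.159 (without control 2), and it was also over 0.05 without control 3, ultrasound 2 or ultrasound 3. For Irf1 the authors' deposited comparison gives a log2 fold change of -0.80 and a q-value of 2.07e-07.

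Nlrc5, the activator of class I genes, read 71.7, 79.8 and 72.9 in the controls and 65.2, 53.4 and 54.7 in the ultrasound libraries, with a log2 change of -0.37 (SE 0.11, adjusted p = 0.0759 by limma). All ultrasound libraries were below all controls, without a call by limma. The authors' deposited table gives Nlrc5 a log2 fold change of -0.50 and a q-value of 0.00425, and limma called it lower without ultrasound 1 (adjusted p = 0.00223).

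Tap1, the peptide transporter gene beside Psmb9, had 143.9, 144.3 and 149.3 in the controls and 134.5, 155.8 and 162.7 in the ultrasound libraries, with ultrasound 1 lowest and ultrasound 2 and 3 highest, as in Psmb8 and Psmb9. Its log2 change was 0.05 (SE 0.10, adjusted p = 0.765 by limma). Pomp, the chaperone of core maturation, had 109.5, 88.7 and 85.9 in the controls and 88.7, 116.0 and 125.6 in the ultrasound libraries (log2 change 0.21, SE 0.16, adjusted p = 0.386 by limma).

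By sublist, 0 of 6 assembly and import genes, 0 of 9 associated proteins and 0 of 12 ubiquitin and shuttle genes were called. Of the 13 interferon signal and class I processing genes 1 was called, Irf1, and of the 4 genes controlling subunit transcription 2, Nfe2l1 and Nfe2l2. Limma called 8.11% of all tested genes.

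**Figure D5:**
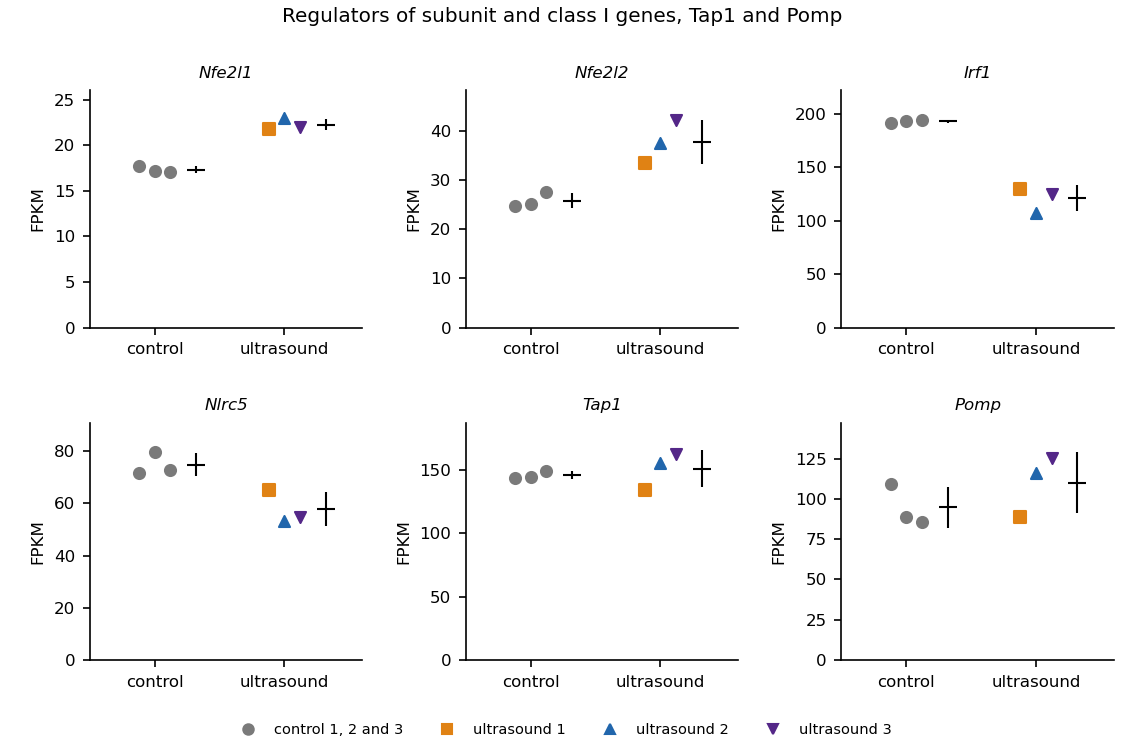
FPKM of Nfe2l1, Nfe2l2, Irf1, Nlrc5, Tap1 and Pomp in each library, with the group mean and SD as a cross and bar on axes that start at 0. Irf1 falls from 191.7 or more in the controls to 130.2 or less, Nfe2l1 and Nfe2l2 lie higher in all ultrasound libraries, and Tap1 and Pomp overlap.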

How the data were processed

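RNA-seq libraries came from sorted CD8 T cells, 3 control and 3 ultrasound, grouped by their titles. Per the submitters' processing notes, the tools were HISAT2, HTSeq, DESeq2 and R 3.2.0 with the mm10 build. The authors deposited FPKM values per library. The authors' signal columns are means of DESeq2 normalized counts, per the file headers. The deposited fold change is a ratio and the log2 fold change its log2, and the p-value and q-value columns come from the authors' comparison, per the file headers. A deposited filtered table held 2746 of the 17744 genes and 0 members. Every gene in it had a fold change of at least 1.5 either way, with p up to 0.0496 in the authors' comparison. The largest member change in that comparison, -0.47 on the log2 scale for Psmc6, fell short of that fold. An unadjusted p under 0.05 was given there for 5 members.

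The 10655 of 17744 genes that reached an FPKM of 1 in 3 libraries were tested on log2(FPKM + 1), a scale that understates changes of low genes, with limma 3.58.1 and its trend and robust options (R 4.3.3). Tests were two-sided with Benjamini-Hochberg adjustment over all of them and a threshold of 0.05. Whole reads were recovered from the FPKM values and the authors' group means. All 63992 values under 1000 reads lay within 0.05 of a whole number (100%), and reads carry no molecular identifiers. On simulated data with 200 genes changed by 1 on the log2 scale, the fit recovered 100% with 14 false calls (dispersion 0.01, 10672 genes) and 55.1% with 5 (dispersion 0.05, 10691 genes). Recovery at the smaller log2 sizes of the members, -0.38 to 0.45, was not tested.

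Members and lists were chosen with earlier results of these data known. Named genes are the inducible and constitutive catalytic members, Psme1, Psme2, the 12 other members with the smallest p, Psma8, Psme2b, and, of the related list, called genes and Pomp, Nlrc5 and Tap1. Another gene under this rule is not reported here. Other members are given by level, range and counts within their role or named where a count lists them, and those described singly are marked. Alternatives were tried for scaling, pseudocount, filters, the robust option, voom, a replicate block, a term for ultrasound 2 and 3, the threshold, the authors' comparison and each library left out. Sequences and positions came from RefSeq and GENCODE M21 tables of GRCm38, the assembly of mm10. Figures were drawn with matplotlib 3.10.9, and tables were handled with pandas 2.3.3, numpy 2.4.6 and scipy 1.17.1 in Python 3.11.15.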

Additional observations from a re-analysis of the deposited data

How the results depend on the processing

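Depth was not limiting for the tested members, at 625 or more reads per library. With 3 libraries a group, the calls rest on few samples, and the causes of the shifts below were not tested. The number of all genes called was 864. It was 468 with median-of-ratios scaling, 573 with voom, 150 with a term for ultrasound 2 and 3, 2179 in the authors' deposited comparison, 1962 at an adjusted p under 0.1, and 0 with no filter or with a replicate block. Leaving out single libraries gave 5727 without ultrasound 1, 567 without control 1 and 0 without control 2, control 3, ultrasound 2 or ultrasound 3. Where it was 0 by limma, 1962 to 4216 genes had an unadjusted p under 0.05. Of the proteasome subunits, 1 was called. The count was 0 with no filter, median-of-ratios or upper-quartile factors, voom, the block, the term and the authors' comparison, 3 at an adjusted p under 0.1, 25 without ultrasound 1 and 0 without any other single library. Where the count was 0, between 3 and 9 members had an unadjusted p under 0.05, in limma or the authors' comparison. The inducible subunits gave 0 to 2, the 2 arising without ultrasound 1. Of the related genes, 3 were called. There were 0 with no filter, the block and the term, 1 with median-of-ratios or upper-quartile factors and voom, 7 in the authors' comparison, 6 at an adjusted p under 0.1, 26 without ultrasound 1, 1 without control 1 and 0 without any other single library.

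The deviations of same-numbered control and ultrasound libraries from their group means had correlations of -0.04, 0.05 and 0.06. Those of differently numbered libraries ran from -0.27 to 0.13. The values gave no sign of pairing by number. They cannot decide it, since the split of ultrasound 1 from ultrasound 2 and 3 is part of these deviations. The replicate block left 0 genes called.

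Among 26 named members, 442 recomputed changes comprised 381 with the same direction and call, 12 that lost and 20 that gained a call, and 29 that changed sign (9 genes). Only Psmb5 was called among these members, so all 12 losses were its own, and the other members had no call to lose. Among 6 related genes, 102 comprised 62, 30, 3 and 7 (2 genes). The 30 losses were those of the called genes Irf1, Nfe2l1 and Nfe2l2. With that term, under which the contrast is ultrasound 1 with the 3 controls, the log2 change became -0.17 for Psmb8, -0.0059 for Psmb10, -0.138 for Psme1, -0.0948 for Psme2, -0.0467 for Psmb6, -0.105 for Psme2b, 0.093 for Psmc6, -0.0851 for Pomp and -0.116 for Tap1. With median-of-ratios scaling it became -0.122 for Psme1, -0.0522 for Psme2, -0.0181 for Psmb7, -0.0713 for Psme2b and -0.0789 for Tap1. With upper-quartile factors it became -0.092 for Psme1, -0.0223 for Psme2, -0.0417 for Psme2b and -0.049 for Tap1. With voom it became -0.103 for Psme1, -0.033 for Psme2, -0.0527 for Psme2b and -0.05998 for Tap1. In the authors' deposited comparison it was -0.12 for Psme1, -0.0505 for Psme2, -0.0198 for Psmb7, -0.0666 for Psme2b and -0.0752 for Tap1. Without mitochondrial, hemoglobin and immunoglobulin genes it was -0.00986 for Psme1. Leaving out single libraries gave -0.0819 to 0.0874 for Psmb9, -0.047 to 0.0737 for Psme1, -0.0203 to 0.131 for Psme2b and -0.0101 to 0.127 for Tap1.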
